A study of Saccharomyces cerevisiae with 36 samples.

Results

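The genes described here are 46 genes for the synthesis of histidine, lysine, the branched-chain amino acids, the aromatic amino acids, threonine, serine, asparagine and proline in budding yeast, together with GCN4, which encodes the activator of these pathways. They were chosen by gene symbol from the array's annotation, with the arginine and sulfur pathways left out, and all 47 were among the 5449 genes measured. The study exposed exponentially growing cells of the haploid strain BY4741 in minimal medium to 1 of 6 pesticides for 2 h at a dose the labels call the IC20, an inhibitory concentration. Pyrimethanil was given at 20 mg/L, diuron at 80 mg/L, MCPA-ME at 115 mg/L, carbofuran at 160 mg/L, alachlor at 200 mg/L and S-metolachlor at 220 mg/L. Each pesticide had its own 3 control cultures without the compound, and each of the 12 groups held 3 biological replicates, 36 arrays in all. An unexplained mark ends the titles of the alachlor IC20 cultures, and no other label sets them apart. Every culture, controls included, carried the same background: BY4741 lacks working HIS3, LEU2, MET15 and URA3, and the labels do not say which supplements the medium held.

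Gcn4 is the transcription factor of the general control of amino acid synthesis. When uncharged transfer RNA accumulates, the kinase Gcn2 phosphorylates the initiation factor eIF2, general translation slows, and the GCN4 message, held back by short upstream reading frames, is translated. Gcn4 then activates genes in most amino acid pathways together, so its activity is set mainly by translation and protein breakdown and only in part by the level of its RNA.

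All 47 genes were read by 1 probe set each, with intensities between 1792 and 28608 on every array, far above the floor of 32 below which values were not ordered. The array medians lay between 1319.6 and 1511.4, so the deposited intensities were already close to a common scale. A lower share of a gene's RNA in the total and a lower total of RNA per cell cannot be told apart on that scale. URA3 lay under the floor on 36 of 36 arrays and LEU2 between 66.97 and 194.6. HIS3 read between 4142 and 11320, and the his3 allele of BY4741 is an internal deletion, so its probe set does not check the strain. Of the markers of the opposite mating type, MF(ALPHA)1 was under the floor on 29 of 36 arrays. STE3 lay between 63.87 and 249.6 and MF(ALPHA)2 between 67.48 and 237.3, above the floor on all 36. The spread between replicates was not equal: the median standard deviation of the 47 genes was 0.035 to 0.059 on the log2 scale in 10 groups, against 0.109 in the MCPA-ME controls and 0.223 in the MCPA-ME IC20 cultures. Over all genes the median standard deviation was 0.153 in the MCPA-ME controls and 0.23 in the MCPA-ME IC20 cultures. It was also high in the carbofuran IC20 cultures, at 0.164 against 0.094 in their controls. Each pesticide was therefore tested with limma on its own 6 arrays, and the threshold was a p under 0.05 after Benjamini-Hochberg adjustment across the 5449 genes.

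The 47 genes did not move together with any of the 6 pesticides. By the number of calls in 1 direction pyrimethanil came nearest, with 17 genes higher and 3 lower. By sign alone, 39 of the 47 were negative with MCPA-ME (53.2% of all genes) and 35 positive with pyrimethanil (42.3% of all genes). S-metolachlor split them, with 8 higher and 12 lower, and 7 of those 12 were genes of the branched-chain branch. Diuron lowered 7 and raised 2, carbofuran raised 9 and lowered 2, alachlor raised 4 and lowered none, and MCPA-ME gave no call. A total of 34 of the 47 genes (72.3%) passed the test with at least 1 pesticide, against 63.1% of all genes, and 13 passed with none, against 36.9%. For 7 genes (LYS1, LYS2, LYS4, LEU4, ILV3, TRP4 and ARO8) the calls ran in both directions, a share of 14.9% against 8.63% of all genes.

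**Figure D1:**
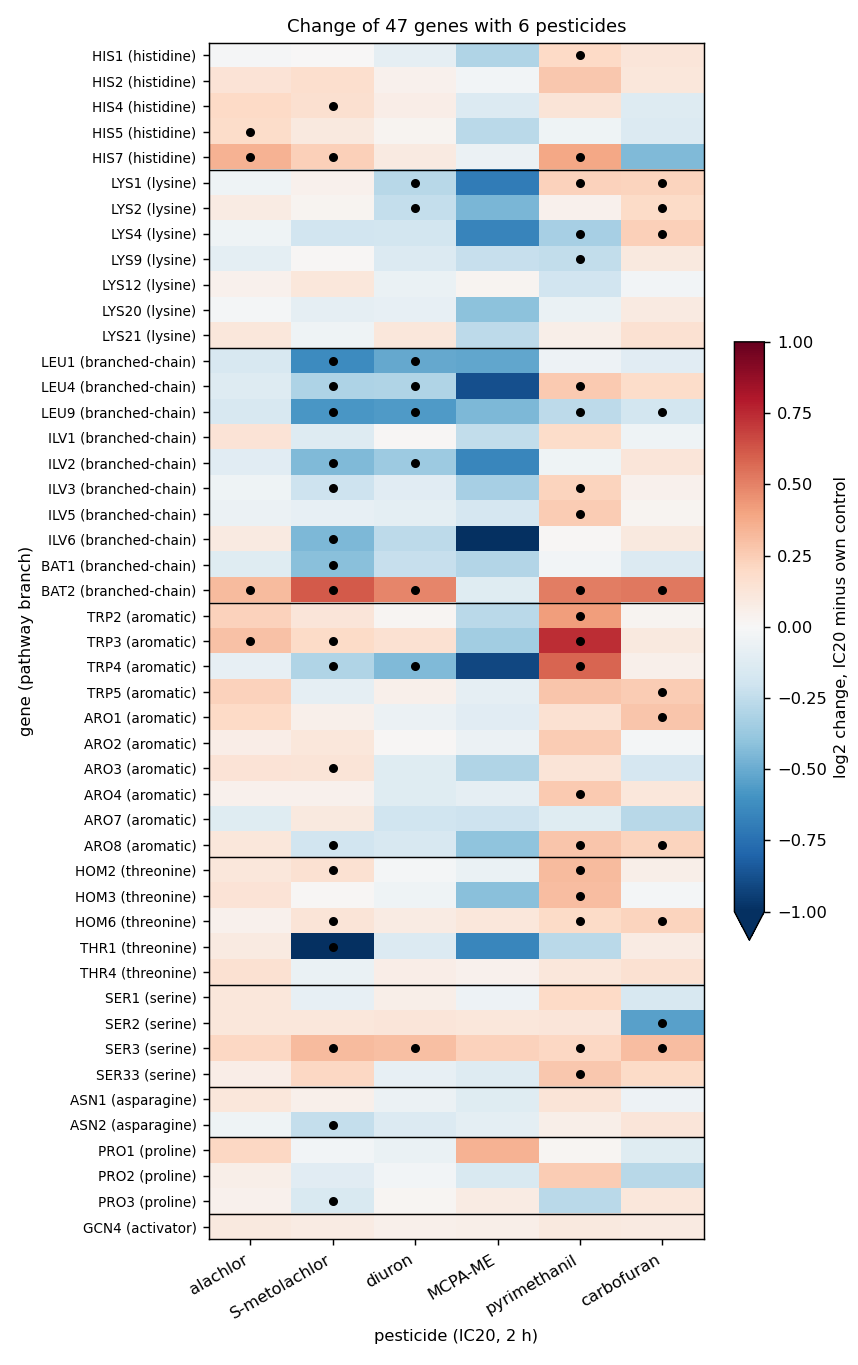
Log2 change (IC20 minus own control, colour) of the 47 genes (rows, grouped by pathway branch) with the 6 pesticides (columns), with a dot where the adjusted p was under 0.05. BAT2 carries a dot in 5 columns and LEU9 in 4, the pyrimethanil column holds 20 dots and the MCPA-ME column none, and the values of -1.10 for ILV6 with MCPA-ME and -1.24 for THR1 with S-metolachlor lie beyond the colour scale.

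These counts were read against the calls over all genes. With pyrimethanil, 7.23% of all genes were higher and 8.97% lower, so 17 of 47 higher was above the share of all genes and 3 of 47 lower was close to it. With S-metolachlor, 16.7% of all genes were higher and 20.6% lower, and the 8 and 12 of 47 lay near those shares. With diuron, 10.8% were higher and 7.54% lower, and the 7 lower of 47 exceeded the background while the 2 higher did not. With carbofuran, 12.7% were higher and 11.9% lower, with alachlor 5.65% and 3.23%, and with MCPA-ME 0.881% and 0.275%. The median log2 change of the 47 was 0.15 with pyrimethanil, where the median of all genes was -0.04. It was 0.09 with both alachlor and carbofuran, 0.01 with S-metolachlor, -0.07 with diuron and -0.21 with MCPA-ME, where the medians of all genes lay between -0.02 and 0. Against all 18 controls the median was 0.04 with pyrimethanil, 0.02 with carbofuran, -0.02 with diuron and 0.04 with S-metolachlor, and with each array centred on its median it was 0.17 with carbofuran and 0.04 with S-metolachlor. Without MCPA-ME IC20 array 2 the MCPA-ME median was -0.11, without diuron IC20 array 3 the diuron median was -0.04, and without S-metolachlor control array 2 the S-metolachlor median was -0.01. By groups that did not overlap, every IC20 array lay above every control array for 27 of the 47 genes with pyrimethanil (16.8% of all genes), 24 with alachlor (17.2%), 21 with carbofuran (25.5%), 15 with S-metolachlor (24.5%), 6 with diuron (21.2%) and 2 with MCPA-ME (10.9%). Every IC20 array lay below every control array for 19 genes with diuron (19% of all genes), 17 with S-metolachlor (30.4%), 13 with MCPA-ME (7.98%), 10 with carbofuran (24.2%), 5 with pyrimethanil (24.8%) and 2 with alachlor (13.6%).

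Many single calls were lost when 1 array was left out. Each such fit had fewer arrays for every gene, so a lost call need not mean that it rested on that array. When 1 of the 6 arrays was left out, the count of higher genes with pyrimethanil dropped from 17 to 8, 7 and 3 without control arrays 1, 2 and 3 and to 3, 1 and 6 without IC20 arrays 1, 2 and 3. With carbofuran no gene was called in either direction without any one of the 3 control arrays. Without carbofuran IC20 array 1, which lay far from its replicates over all genes, 9 genes were higher and 7 lower, and without arrays 2 and 3 there were 2 and 1 higher and none lower. With diuron the lower genes numbered 4, 2 and 4 without control arrays 1, 2 and 3 and 1, 7 and 8 without IC20 arrays 1, 2 and 3, and the higher genes numbered 1 without IC20 array 1 and 2 otherwise. With S-metolachlor the higher genes numbered 7, 5 and 4, then 2, 4 and 3, and the lower genes 10, 7 and 8, then 7, 9 and 7, in the same order of arrays. With alachlor 1, 1 and 3, then 1, 1 and 2 genes were higher and none lower. The share of all genes called in these fits was not counted, so the drops are not set against it. The calls that passed the test in all 6 of these fits were HIS7 with alachlor, LEU9 and BAT2 with diuron, TRP3 with pyrimethanil, and LEU1, LEU4, LEU9, ILV2, BAT1, BAT2, THR1, SER3 and ASN2 with S-metolachlor. These were 13 of the 64 calls, and 12 calls were lost whichever array was left out. A fit of all 36 arrays with a single spread called 0 of the 4 alachlor genes, 5 of the 11 carbofuran genes, 4 of the 9 diuron genes, 13 of the 20 pyrimethanil genes and 11 of the 20 S-metolachlor genes.

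The message of GCN4 itself differed little between cultures with and without any pesticide. Its intensities in the alachlor experiment were 22765, 22566 and 22554 in the controls and 24567, 24192 and 24098 with the compound. In the pyrimethanil experiment they were 23767, 24513 and 23611 against 25931, 25667 and 25630. In both experiments every IC20 array lay above every control array, as was also so with carbofuran and diuron, whereas the groups overlapped with MCPA-ME and S-metolachlor. The log2 change of GCN4 was positive with all 6 pesticides, between 0.05 and 0.10, and 8.18% of all genes were positive with all 6. No change of GCN4 passed the test, with adjusted p from 0.0965 with pyrimethanil to 0.806 with MCPA-ME. With all 36 arrays in 1 fit weighted by group spread, the adjusted p was 0.00637 with pyrimethanil, 0.0109 with alachlor and 0.0128 with S-metolachlor, at unchanged sizes of change.

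SER3, BAT2 and LEU9 were the genes of the list called in 1 direction with at least 4 pesticides. SER3 encodes a 3-phosphoglycerate dehydrogenase that opens serine synthesis, BAT2 the cytosolic branched-chain aminotransferase, and LEU9 an alpha-isopropylmalate synthase of leucine synthesis. Of all genes, 2.13% were called higher with at least 4 pesticides and 0.661% lower.

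SER3 rose with carbofuran, diuron, pyrimethanil and S-metolachlor. With S-metolachlor it read 14290, 13450 and 13965 in the controls and 17094, 17372 and 17696 in the IC20 arrays, a log2 change of 0.32 ± 0.038 (SE, n = 3 per group; adjusted p = 0.00368). With diuron it read 15290, 15829 and 16378 against 19472, 19427 and 19418, a log2 change of 0.30 (adjusted p = 0.00914). Every IC20 array of SER3 lay above every control array with all 6 pesticides, a pattern shared with HOM6 and found in 1.01% of all genes. The log2 changes of SER3 with alachlor and MCPA-ME were 0.21 and 0.23 and did not pass the test (adjusted p = 0.17 and 0.244). An F test of the 6 changes found no difference between pesticides (adjusted p = 0.48). With diuron the call was lost without IC20 array 1, with carbofuran without any one control array, and with pyrimethanil (adjusted p = 0.0487) without any array other than IC20 array 3.

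BAT2 rose with every pesticide except MCPA-ME. With S-metolachlor the controls read 4683, 4988 and 5517 and the IC20 arrays 7986, 7212 and 7981, a 1.53-fold difference (log2 change 0.61 ± 0.078, adjusted p = 0.00439). With diuron they read 6143, 5887 and 6375 against 8734, 8349 and 8708, a 1.4-fold difference (adjusted p = 0.00302). The groups did not overlap in any of the 5 experiments in which BAT2 rose. The log2 change was 0.53 with carbofuran (adjusted p = 0.0292), 0.51 with pyrimethanil (adjusted p = 0.0405) and 0.32 with alachlor (adjusted p = 0.02). With MCPA-ME the controls alone ranged over 7058, 5581 and 3248, the IC20 arrays read 5342, 3595 and 5233, and the adjusted p was 0.933. The pyrimethanil call was lost with replicates of equal number paired (adjusted p = 0.0586) and without any array other than control array 1. The carbofuran call was lost without control array 1, 2 or 3 or IC20 array 3, and the alachlor call without any array other than IC20 array 3.

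LEU9 fell with carbofuran, diuron, pyrimethanil and S-metolachlor. With diuron the controls read 7925, 7969 and 8170 and the IC20 arrays 5528, 5825 and 4939, which is 1.48-fold lower (log2 change -0.57 ± 0.068, adjusted p = 0.00588). With S-metolachlor they read 6966, 7417 and 7302 against 4812, 5360 and 4387, which is 1.49-fold lower (log2 change -0.58 ± 0.08, adjusted p = 0.00559). The lowest control lay well above the highest IC20 array in both experiments. With pyrimethanil the log2 change was -0.26 (adjusted p = 0.016) and with carbofuran -0.18 (adjusted p = 0.0487). The carbofuran call was lost without any single array, and the pyrimethanil call without control array 3 or IC20 array 1 or 2. The changes with alachlor (-0.16) and MCPA-ME (-0.45) were of the same sign and did not pass the test (adjusted p = 0.352 and 0.487).

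**Figure D2:**
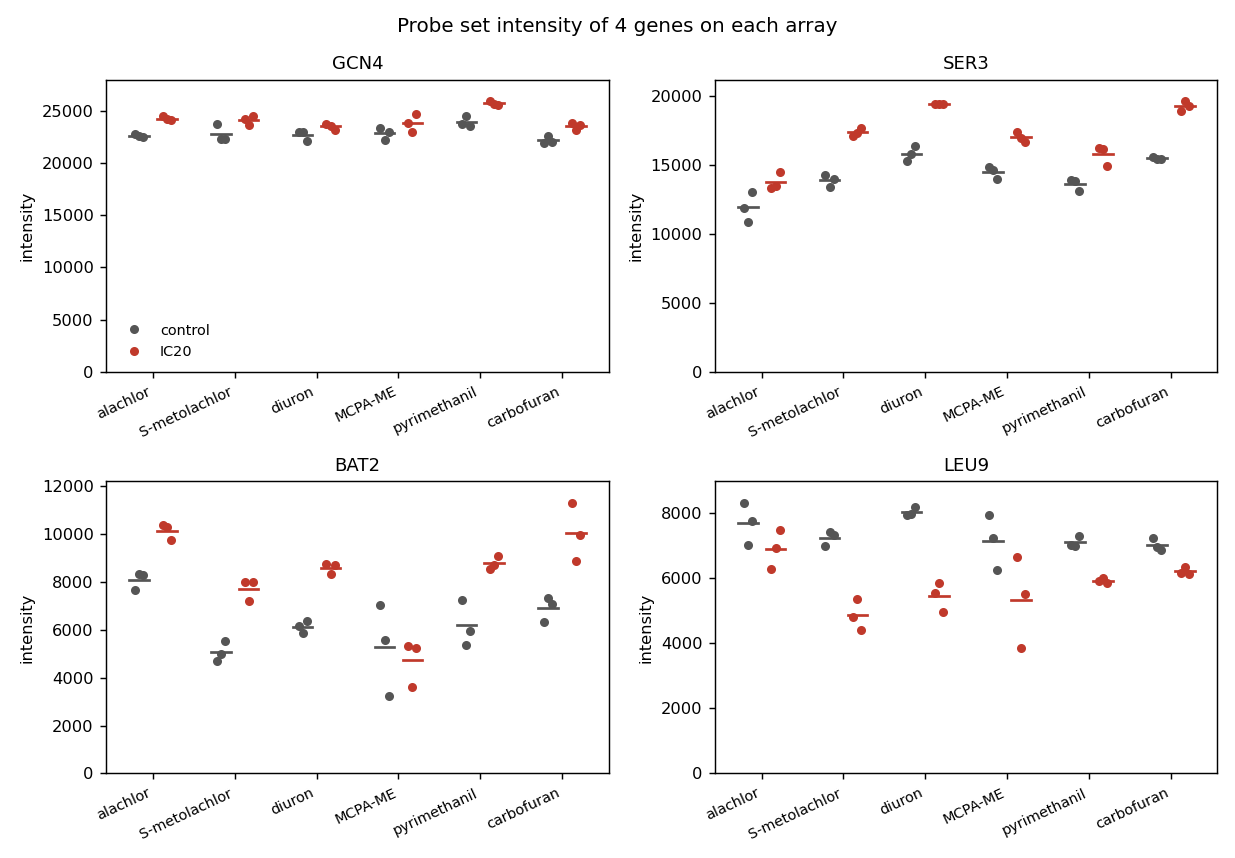
Intensity (linear axis from 0) of GCN4, SER3, BAT2 and LEU9 on each of the 36 arrays, with grey points for controls, red points for IC20 cultures and lines at the means of 3 arrays. SER3 has every red point above the grey points of its own experiment, BAT2 has this in every experiment except MCPA-ME, and GCN4 moves by at most 0.10 on the log2 scale.

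The branched-chain branch makes isoleucine, valine and leucine through a shared series of mitochondrial enzymes, and leucine leaves it through Leu4 and Leu9, Leu1 and the product of LEU2, which BY4741 lacks. This branch held the most lower calls. With S-metolachlor 7 of its 10 genes fell and BAT2 rose, where 20.6% of all genes were lower and 16.7% higher, and the branch median was -0.36 against -0.02 for all genes. With diuron 4 fell and BAT2 rose (7.54% and 10.8% of all genes), with a median of -0.24 against 0 for all genes. With pyrimethanil 4 rose and LEU9 fell (7.23% and 8.97% of all genes).

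LEU1 encodes the isopropylmalate isomerase that follows Leu4 and Leu9. It read 11383, 14743 and 14507 in the S-metolachlor controls and 8579, 8715 and 8825 in the IC20 arrays (log2 change -0.63 ± 0.107, adjusted p = 0.00995). In the diuron experiment it read 13207, 12712 and 13426 against 9551, 10185 and 7977 (log2 change -0.51 ± 0.096, adjusted p = 0.021). The groups were apart in both, and the diuron call was lost without any control array or IC20 array 1. LEU1, LEU9 and BAT1 had a negative log2 change with all 6 pesticides, which 8.90% of all genes had.

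LEU4, the main alpha-isopropylmalate synthase, moved in both directions. It read 17894, 18902 and 18003 in the S-metolachlor controls against 15145, 15393 and 13704 (log2 change -0.31, adjusted p = 0.0125). With diuron it read 17792, 17344 and 16610 against 13767, 14711 and 13552 (log2 change -0.30, adjusted p = 0.0158). With pyrimethanil the order was the other way, with 17149, 17083 and 18062 in the controls and 20435, 20477 and 21759 in the IC20 arrays (log2 change 0.26, adjusted p = 0.0249). The groups of LEU4 did not overlap in any of these 3 experiments. The diuron call was lost without control array 2 or IC20 array 1 and the pyrimethanil call without any single array. ILV3, which encodes dihydroxyacid dehydratase, likewise fell with S-metolachlor (-0.21, adjusted p = 0.0311) and rose with pyrimethanil (0.22, adjusted p = 0.0299). Its pyrimethanil call was lost without any single array and its S-metolachlor call without any array other than control array 1.

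Of the other genes of the branch, ILV2, the catalytic subunit of acetolactate synthase, fell with S-metolachlor (-0.44, adjusted p = 0.00501) and diuron (-0.36, adjusted p = 0.0158). BAT1, the mitochondrial counterpart of BAT2, fell with S-metolachlor (-0.42, adjusted p = 0.00659), so the 2 aminotransferases moved apart there. ILV6, the regulatory subunit of acetolactate synthase, also fell with S-metolachlor, from 8972, 9713 and 9728 to 6124, 8060 and 6740 (-0.45, adjusted p = 0.0255). ILV5, the reductoisomerase, rose with pyrimethanil (0.25, adjusted p = 0.0152). ILV1, the threonine deaminase that leads to isoleucine, passed the test with no pesticide. The ILV2 call with diuron was lost without control array 3 or IC20 array 1. The ILV6 call with S-metolachlor was lost without control array 2 or 3 or IC20 array 1 or 3. The ILV5 call with pyrimethanil was lost without control array 3 or IC20 array 1 or 2.

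OAC1, a mitochondrial carrier that can export isopropylmalate and is known as a target of the leucine regulator Leu3, stood outside the 47 genes in a list of 3 carriers of branch intermediates. It read 8871, 8496 and 9097 in the S-metolachlor controls and 4946, 5106 and 4650 in the IC20 arrays (log2 change -0.85, adjusted p = 0.000624). It also fell with diuron (-0.49, adjusted p = 0.0213) and alachlor (-0.29, adjusted p = 0.02). The S-metolachlor call held with each array left out, the diuron call was lost without any control array or IC20 array 1, and the alachlor call without any array other than IC20 array 3. The message of LEU3 itself passed the test only in the carbofuran experiment, where it fell (-0.35, adjusted p = 0.0235, lost without any array other than IC20 array 1), and read -0.01 with S-metolachlor and -0.07 with diuron.

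**Figure D3:**
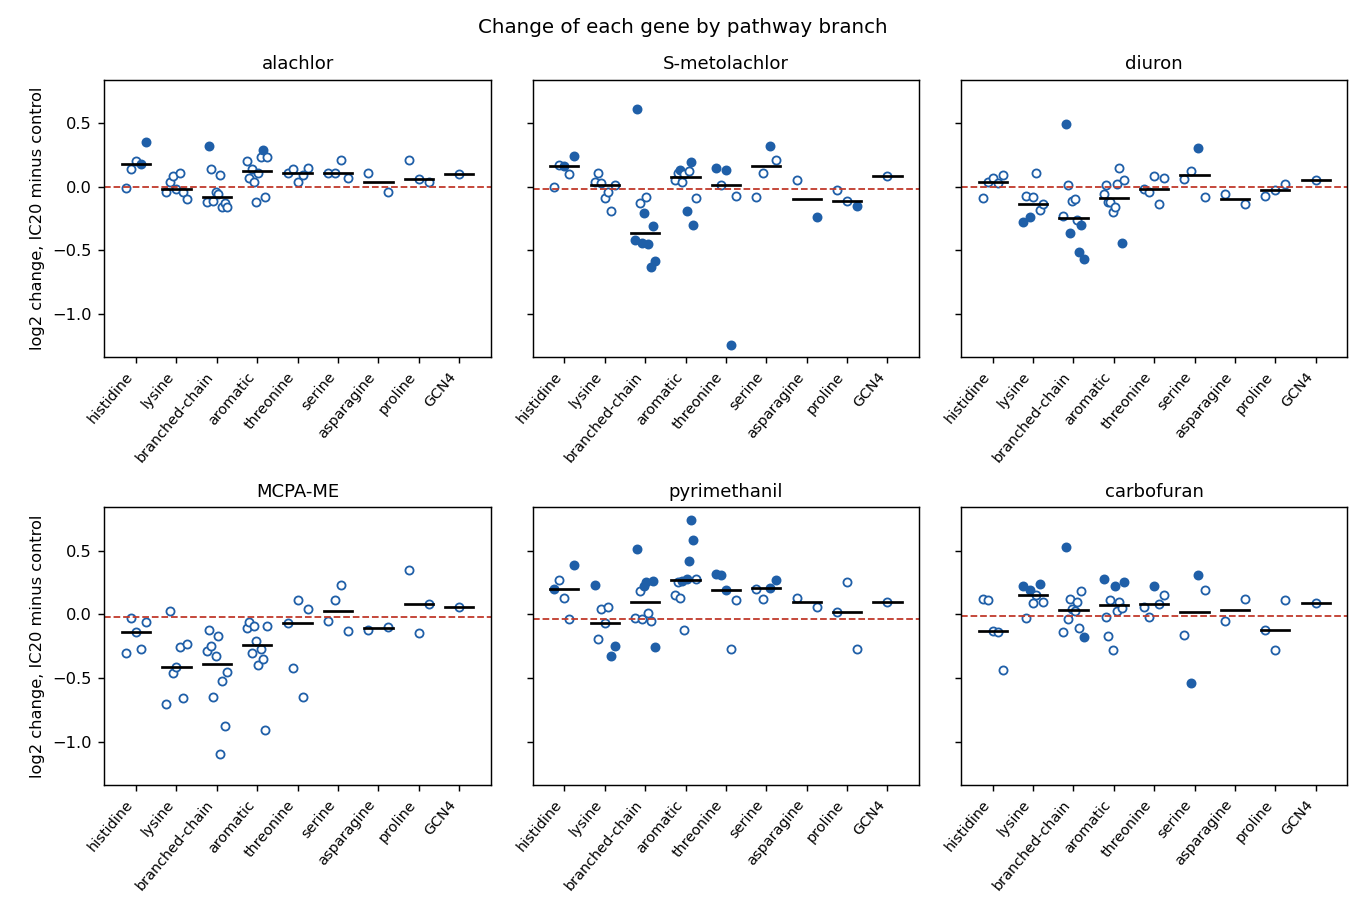
Log2 change (IC20 minus own control) of each of the 47 genes by branch, in a panel per pesticide, with filled points for adjusted p under 0.05, black lines at branch medians and a red dashed line at the median of all 5449 genes. The branched-chain medians lie at -0.36 with S-metolachlor and -0.24 with diuron with BAT2 alone well above 0, and the aromatic median with pyrimethanil lies at 0.27.

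The aromatic branch runs from the DAHP synthases Aro3 and Aro4 through chorismate to tryptophan, phenylalanine and tyrosine. With pyrimethanil 5 of its 10 genes rose and none fell, where 7.23% of all genes were higher and 8.97% lower. The log2 change was positive for 9 of the 10, against 42.3% of all genes, with a median of 0.27 against -0.04 for all genes. Among these 10 genes the rises were largest in the tryptophan arm. TYR1, a gene of the tyrosine arm outside the list, rose by 0.46 with pyrimethanil. That call held with each array left out, so the arms themselves were not ranked. TRP3, which encodes a subunit of anthranilate synthase that also carries the indole-glycerol-phosphate synthase, read 3939, 4234 and 4145 in the controls and 7208, 7257 and 6187 in the IC20 arrays. Its lowest IC20 array was far above its highest control, a 1.67-fold difference (log2 change 0.74 ± 0.076, adjusted p = 0.00645). TRP4, the anthranilate phosphoribosyltransferase of the next step, read 3190, 3908 and 4310 against 5093, 5752 and 6134 (log2 change 0.58 ± 0.132, adjusted p = 0.0413). TRP2, the other anthranilate synthase subunit, read 5940, 5854 and 5789 against 8082, 8093 and 7344 (log2 change 0.42, adjusted p = 0.0115). Neither gene's groups overlapped. ARO8, an aromatic aminotransferase, and ARO4 rose by 0.28 (adjusted p = 0.0283) and 0.26 (adjusted p = 0.0229). The TRP4 and ARO8 calls were lost without any single array, the ARO4 call without any array other than control array 2, and the TRP2 call without IC20 array 2. TRP5, tryptophan synthase, read 0.28 and passed the test with replicates of equal number paired (adjusted p = 0.0357) but not without the pairing (adjusted p = 0.0623).

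Other pesticides moved single aromatic genes. TRP3 rose with alachlor (5296, 5260 and 5693 in the controls against 6524, 6573 and 6749, log2 change 0.29, adjusted p = 0.0204) and with S-metolachlor (6124, 6425 and 6461 against 7307, 7207 and 7104, log2 change 0.19, adjusted p = 0.0156). Its alachlor call was lost without any array other than control array 3, and its S-metolachlor call without IC20 array 1. TRP4 went the other way with diuron, from 5331, 5648 and 4866 to 3746, 4258 and 3715 (log2 change -0.44, adjusted p = 0.021), and with S-metolachlor (-0.30, adjusted p = 0.0424). The diuron call of TRP4 was lost without control array 1 or 2 or IC20 array 1, and the S-metolachlor call without any single array. ARO8 fell with S-metolachlor (-0.19, adjusted p = 0.0354) and rose with carbofuran (0.22, adjusted p = 0.0489), and both calls were lost without any single array. Carbofuran also raised ARO1, the enzyme of the 5 central steps to chorismate (0.28, adjusted p = 0.0414), and TRP5 (0.25, adjusted p = 0.0232). Both were lost without any array other than IC20 array 1, and ARO1 read -0.07 when its carbofuran arrays were set against all 18 controls. With replicates of equal number paired, ARO7, chorismate mutase, at -0.20 and ARO8 at -0.16 joined TRP4 below the controls in the diuron experiment (adjusted p = 0.0386 and 0.0466), against 0.158 and 0.0569 without the pairing.

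In the lysine branch, which makes lysine through alpha-aminoadipate, the pesticides moved genes in opposite directions. LYS1, the saccharopine dehydrogenase of the last step, read 15393, 16161 and 15275 in the diuron controls and 12752, 13446 and 12334 in the IC20 arrays (log2 change -0.28, adjusted p = 0.0177). It read 11094, 11173 and 11451 in the carbofuran controls and 12343, 13834 and 13109 in the IC20 arrays (0.22, adjusted p = 0.0495), and it also rose with pyrimethanil (0.23, adjusted p = 0.0422). Each of these groups stood apart from its own controls. The controls of the carbofuran and pyrimethanil experiments were lower than those of the other experiments, and against all 18 controls LYS1 read -0.07 with carbofuran and -0.13 with pyrimethanil. LYS2, the alpha-aminoadipate reductase, fell with diuron (-0.24, adjusted p = 0.0249) and rose with carbofuran (0.19, adjusted p = 0.0414), where it read -0.11 against all 18 controls. LYS4, homoaconitase, rose with carbofuran (0.24, adjusted p = 0.046) and fell with pyrimethanil (-0.33, adjusted p = 0.0274). LYS9, the other saccharopine dehydrogenase, fell with pyrimethanil, from 22543, 22193 and 21537 to 18508, 18796 and 18259 (-0.25, adjusted p = 0.0174). LYS12, LYS20 and LYS21 passed the test with no pesticide. The pyrimethanil calls of LYS1 and LYS4 were lost with replicates of equal number paired (adjusted p = 0.0533 and 0.0539), and the 3 carbofuran calls without any array other than IC20 array 1. The LYS1 call with pyrimethanil was lost without any single array and the LYS4 call without any array other than control array 2. The LYS9 call was lost without IC20 array 1 or 2. The diuron call of LYS1 was lost without control array 2 or IC20 array 1, and that of LYS2 without any control array or IC20 array 1.

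In the histidine branch HIS7, which encodes the imidazole glycerol phosphate synthase, stood out. It read 6779, 6306 and 6511 in the alachlor controls and 8278, 8186 and 8457 in the IC20 arrays (log2 change 0.35 ± 0.04, adjusted p = 0.00878). It rose with S-metolachlor from 6112, 6786 and 6567 to 7737, 7545 and 7731 (0.24, adjusted p = 0.0158). With pyrimethanil it read 4518, 4010 and 3760 against 5088, 5417 and 5578 (0.39, adjusted p = 0.0339). The groups did not overlap in these 3 experiments. With carbofuran HIS7 read 4536, 4358 and 4760 against 4492, 3040 and 2752, and the log2 change of -0.44 did not pass the test (adjusted p = 0.136). The S-metolachlor call was lost without IC20 array 1 or 3. The pyrimethanil call was lost with replicates of equal number paired (adjusted p = 0.0676) and without any array other than control array 1, and against all 18 controls the value was -0.04. HIS1, the ATP phosphoribosyltransferase of the first step, rose with pyrimethanil (0.20, adjusted p = 0.0263), HIS4 with S-metolachlor (0.16, adjusted p = 0.0408) and HIS5 with alachlor (0.18, adjusted p = 0.0447). The HIS4 and HIS5 calls were lost without any single array and the HIS1 call without any array other than control array 1. HIS2 passed the test with no pesticide.

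The threonine branch converts aspartate through homoserine to threonine. THR1, which encodes homoserine kinase, had the largest change of any of the 47 genes with any pesticide: 7791, 7329 and 6673 in the S-metolachlor controls against 2729, 3956 and 2686 in the IC20 arrays. The groups were far apart, and THR1 was 2.36-fold lower (log2 change -1.24 ± 0.167, adjusted p = 0.00525). THR1 also varied between cultures that received no pesticide. Its controls lay between 15283 and 15749 in the alachlor experiment, at 9688, 6937 and 11594 in the pyrimethanil experiment and at 14203, 7421 and 2529 in the MCPA-ME experiment. The lowest MCPA-ME control therefore lay below the S-metolachlor IC20 arrays, and an F test found the 6 control groups unequal (adjusted p = 0.00136). THR4, threonine synthase, passed the test with no pesticide.

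The 3 genes that lead from aspartate to homoserine rose with pyrimethanil. HOM2, the aspartate semialdehyde dehydrogenase, read 22537, 23081 and 22633 in the controls and 28355, 28225 and 28608 in the IC20 arrays (log2 change 0.32 ± 0.033, adjusted p = 0.00672). HOM3, the aspartate kinase, changed by 0.31 (adjusted p = 0.0325) and HOM6, the homoserine dehydrogenase, by 0.19 (adjusted p = 0.0468). The HOM6 call was lost with replicates of equal number paired (adjusted p = 0.0661) and without any single array, the HOM3 call without any array other than control array 2, and the HOM2 call without IC20 array 2 (adjusted p = 0.0501). HOM6 also rose with carbofuran (0.22, adjusted p = 0.0414) and S-metolachlor (0.13, adjusted p = 0.0228), and HOM2 with S-metolachlor (0.15, adjusted p = 0.0228). The HOM6 call with carbofuran was lost without any array other than IC20 array 1, and the HOM6 and HOM2 calls with S-metolachlor without any array other than control array 1.

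In the serine branch SER33, the second 3-phosphoglycerate dehydrogenase, rose with pyrimethanil (0.27, adjusted p = 0.0375), and with replicates of equal number paired its adjusted p was 0.0501. SER1, the phosphoserine aminotransferase, read 0.20 there and passed the test only with the pairing (adjusted p = 0.0417, against 0.0729). SER2, the phosphatase of the last step, fell with carbofuran from 4438, 4549 and 4210 to 3586, 2932 and 2618 (log2 change -0.54, adjusted p = 0.0349), in the same cultures in which SER3 rose from 15624, 15450 and 15421 to 18911, 19636 and 19271 (0.31, adjusted p = 0.0139). The groups of both genes were apart. The SER2 call was lost without any array other than IC20 array 1, and the SER33 call without control array 1 or 3 or IC20 array 1 or 2. Of the 2 asparagine synthetases, ASN2 fell with S-metolachlor, from 14293, 14494 and 13858 to 11695, 12322 and 12068 (-0.24, adjusted p = 0.00789), and ASN1 passed the test with no pesticide. In the proline branch PRO3, the pyrroline-5-carboxylate reductase, fell with S-metolachlor (-0.15, adjusted p = 0.019), a call lost without control array 2 or IC20 array 1 or 3, while PRO1 and PRO2 passed the test with none.

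MCPA-ME gave no call among the 47 genes by limma on its own 6 arrays, where 1 gene was higher and 5 lower at an unadjusted p under 0.05. Over all genes the shares at that unadjusted p were 7.65% and 5.21%. The log2 change was negative for 39 of the 47, against 53.2% of all genes. Its largest changes lay in genes whose replicates spread widely. ILV6 read 16288, 5062 and 2694 in the controls and 4017, 2168 and 2603 in the IC20 arrays, groups that overlapped (log2 change -1.10 ± 0.693, adjusted p = 0.593). THR1 read 6529, 2838 and 3755 in the IC20 arrays (-0.65, adjusted p = 0.781). TRP4 read 6430, 5550 and 5259 against 4805, 1792 and 3269, where every IC20 array was lower but the log2 change of -0.91 had an SE of 0.368 (adjusted p = 0.39). IC20 array 2 read below both other replicates for 40 of the 47 genes, and it was the array farthest from its group over all genes. A fit of all 36 arrays with a single spread called 22 of the 47 genes lower and 2 higher with MCPA-ME (8.61% and 9.97% of all genes), and the same fit weighted by group spread called 10 lower and none higher (1.27% and 1.78%). The part of the unequal spread in those counts was not tested further.

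**Figure D4:**
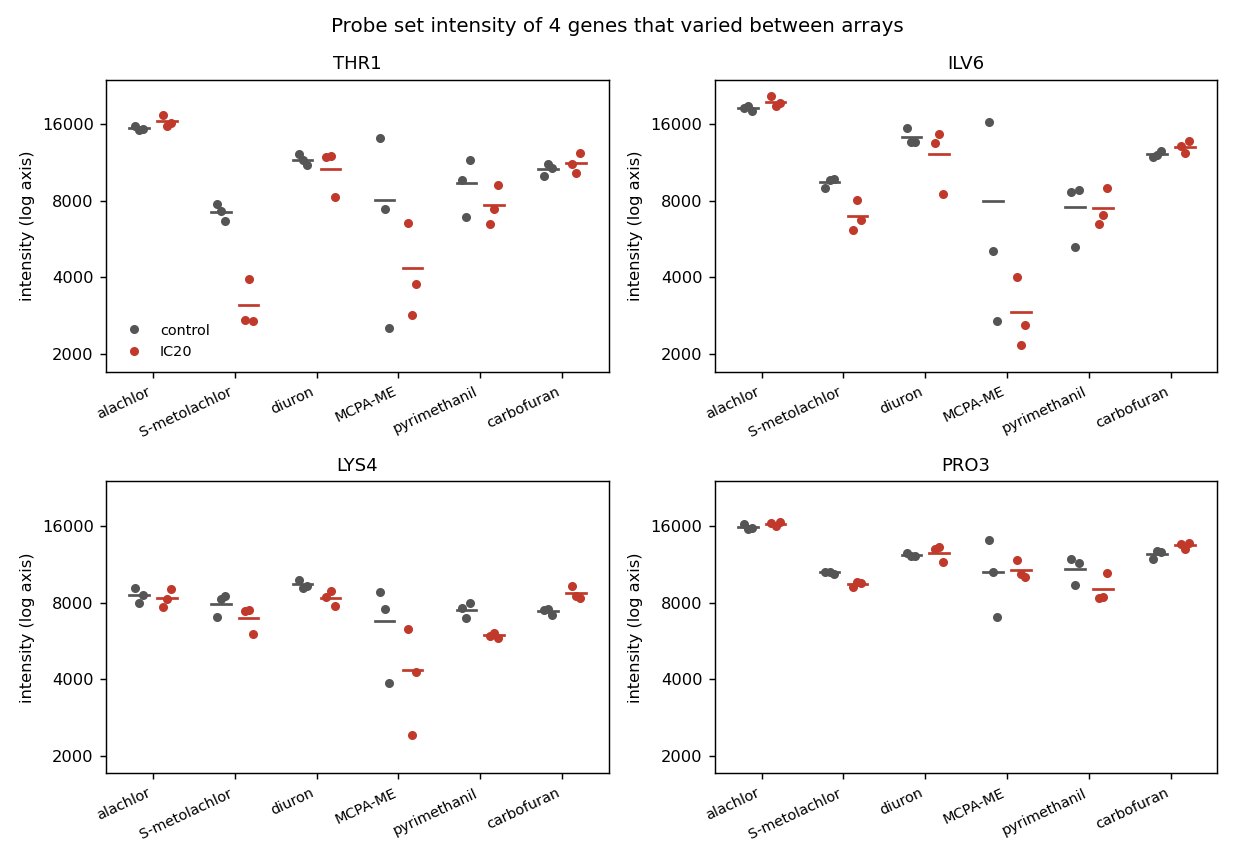
Intensity (log axis) of THR1, ILV6, LYS4 and PRO3 on each of the 36 arrays, with grey points for controls, red points for IC20 cultures and lines at the means of 3 arrays. The MCPA-ME controls of THR1 run from 2529 to 14203 and those of ILV6 from 2694 to 16288, whereas the alachlor controls of both lie close together, and the S-metolachlor groups of THR1 do not overlap.

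Whether a change differed between pesticides was tested by setting each pesticide's change against the mean of the other 5 changes in 1 limma fit of all 36 arrays with weights per group. For pyrimethanil 18 of the 47 genes lay above the other pesticides, where 5.45% of all genes did, and 2 lay below (9.89% of all genes). The 18 came from 7 of the 8 branches, 7 of them from the aromatic branch. TRP4 differed by 0.92 ± 0.139 (SE, adjusted p = 3.25e-05), TRP3 by 0.67 (adjusted p = 1.54e-07), LEU4 by 0.55 (adjusted p = 0.00028) and HOM2 by 0.27 (adjusted p = 8.79e-07). BAT2, which rose with 5 pesticides, did not differ (0.15, adjusted p = 0.492). For S-metolachlor 4 genes lay above and 8 below, against 14.5% and 14.1% of all genes, and the 8 included LEU1 (-0.36, adjusted p = 0.0108), LEU9 (-0.26, adjusted p = 0.0408) and THR1 (-1.06, adjusted p = 0.00458). For carbofuran 9 lay above and 5 below (13.7% and 20% of all genes), for diuron none above and 3 below (6.92% and 4.77%), for alachlor 2 above and none below (1.12% and 0.734%) and for MCPA-ME none above and 5 below (0.367% and 0.899%). These counts moved with the fit: without weights 10 lay above for pyrimethanil, 1 below for S-metolachlor, none above for alachlor and 20 below for MCPA-ME, and with all 18 controls as 1 group 31 lay above for alachlor, 17 above and 14 below for S-metolachlor, 12 below for carbofuran and 9 above and 9 below for diuron. The share of all genes was not counted in these other fits, so their counts have no background beside them. By an F test of the 6 changes, 34 of the 47 genes were unequal, against 50.8% of all genes. The control groups were unequal for 43 of the 47, against 87.6% of all genes.

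**Figure D5:**
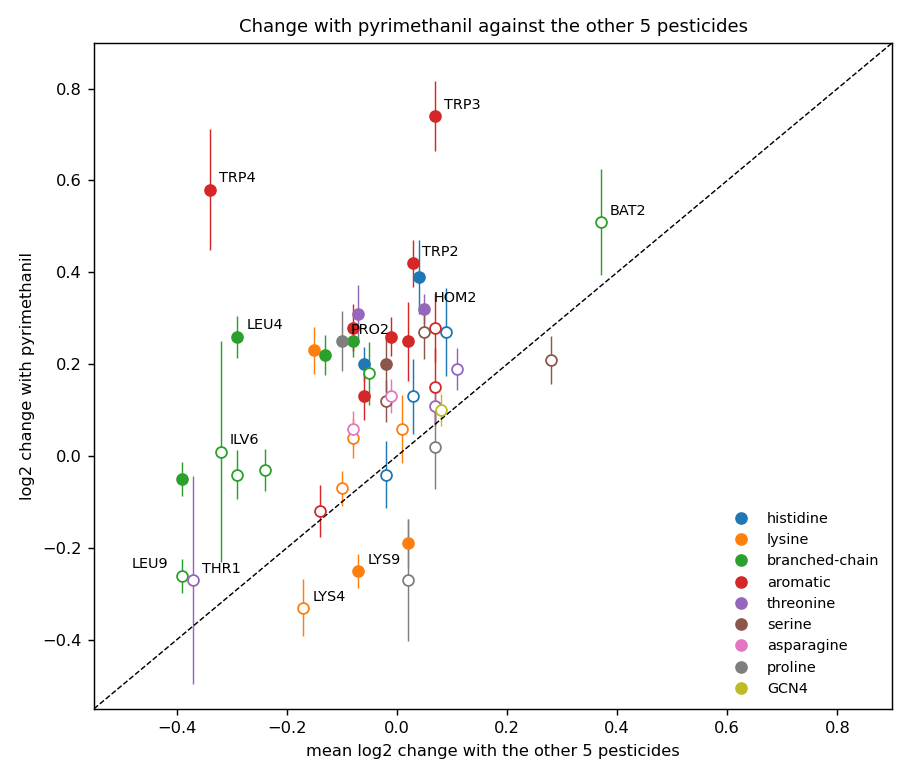
Log2 change with pyrimethanil (vertical axis, bars are the SE) against the mean log2 change with the other 5 pesticides (horizontal axis) for the 47 genes, coloured by branch, with filled points where the difference passed the test and a dashed line of equality. Most points lie above the line, TRP3 and TRP4 farthest at 0.74 and 0.58, while BAT2 at 0.51 is unfilled and LYS9 at -0.25 lies below.

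Alachlor and S-metolachlor, both chloroacetanilide herbicides, were given at different doses, 200 and 220 mg/L, so their values are set side by side without a test. Of the 10 branched-chain genes, 7 were negative with alachlor and 9 with S-metolachlor, with medians of -0.09 and -0.36. LEU1 changed by -0.63 with S-metolachlor and read -0.16 with alachlor (adjusted p = 0.329), and LEU9 by -0.58 and read -0.16 (adjusted p = 0.352). BAT2 rose with both, by 0.61 and 0.32, and HIS7 rose with both, by 0.24 and 0.35. THR1 changed by -1.24 with S-metolachlor and read 0.09 with alachlor (adjusted p = 0.277).

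Genes that act around Gcn4 were described for context. Of 14 genes for the translational control and breakdown of Gcn4, 7 fell and none rose with S-metolachlor, where 20.6% of all genes were lower and 16.7% higher. Among them were GCD1, a subunit of the exchange factor eIF2B (-0.64, adjusted p = 0.00185), GCN20 (-0.44, adjusted p = 0.0052) and GCN1 (-0.32, adjusted p = 0.0156). Gcn1 and Gcn20 act together to let Gcn2 respond. Pyrimethanil lowered 4 of the 14 (8.97% of all genes), with GCD1 at -0.52 (adjusted p = 0.0106) and GCN2 at -0.32 (adjusted p = 0.0454), and raised PCL5, the cyclin that marks Gcn4 for breakdown and is itself a Gcn4 target (0.51, adjusted p = 0.0192). The GCN2 call was lost without any single array, GCD1 with pyrimethanil without IC20 array 2, GCN1 with S-metolachlor without IC20 array 1 or 3, and PCL5 without control array 1 or 3 or IC20 array 1 or 2. Of 12 known Gcn4 targets outside the 47 genes, pyrimethanil raised 9 and lowered 1, where 7.23% of all genes were higher and 8.97% lower, with a median log2 change of 0.80 against 0.15 for the 47. The 9 were the arginine genes ARG1, ARG3, ARG4, ARG8 and CPA1, the vitamin B6 genes SNZ1 and SNO1, MET16 and PCL5. PCL5 is also among the 14, and LEU3, given above, is in this list too. The median of 0.80 thus rests mostly on arginine and vitamin B6 genes. ARG8, for ornithine synthesis, read 6030, 6148 and 5669 in the controls and 16956, 18012 and 16960 in the IC20 arrays (1.54, adjusted p = 0.0004). SNO1, of the vitamin B6 pathway, read 2133, 2701 and 2416 against 8861, 8881 and 9052 (1.89, adjusted p = 0.00114). The groups were far apart for both, and both calls held with each array left out. The same list held 6 higher genes with S-metolachlor (16.7% of all genes), 3 with alachlor (5.65%) and 3 with diuron (10.8%), none lower in those 3 experiments, 2 lower with carbofuran (11.9%), and no call with MCPA-ME by limma, where none of the 12 was under an unadjusted p of 0.05 in either direction.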

How the data were processed

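RNA of the 36 cultures was measured on Affymetrix Yeast Genome 2.0 arrays. The authors deposited linear intensities per probe set, made with Affymetrix Expression Console per the submitters' processing notes. For its version, normalization and summary method: not given in the sources used here. Of 5716 probe sets, 5498 had 1 gene in the supplied annotation and 218 none; the probe set with the highest mean was kept per gene (47 genes had several), which left 5449 genes. No column was left without a sample. Log2 was taken after intensities under 32 were set to 32.

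IC20 and control arrays of each pesticide were compared with limma 3.58.1 in R 4.3.3 on those 6 arrays, since spreads differed between experiments. The test was two-sided and was tested on simulated data. Arrays carry no counts, so the number of arrays limits the precision. The labels call the replicates independent biological ones. Replicate numbers paired the samples only with diuron and pyrimethanil, where every equal-number pair deviated together (correlations 0.352 to 0.402 and 0.173 to 0.38); their paired values are given where they changed a call.

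Genes were named by a rule: GCN4 throughout, the called gene with the largest change in each direction per branch with groups that do not overlap, and genes called with at least 4 pesticides or in both directions. Other members are given by their log2 change where their branch is described, and up to 4 called genes per list outside the members. The members, lists and rule were chosen with earlier results of these data known.

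Alternatives were a fit of all 36 arrays with or without group weights, quantile normalization, median centring, 16 added in place of the floor, the dimmest 25% of genes left out, all annotated probe sets, all 18 controls as 1 group, the replicate block, trend and robust moderation, and each array left out.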

Additional observations from a re-analysis of the deposited data

Results flagged for a closer look

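The results below are genes of the list whose log2 change with 1 pesticide differed from its mean change with the other 5, tested as a contrast in 1 limma fit of all 36 arrays with weights per group and adjusted over all 5449 genes. The other 5 changes are shared between these contrasts, so the contrasts are not independent. Each value is the difference in log2 change.

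With pyrimethanil the change lay above the mean of the others for TRP4 (0.92), TRP3 (0.67), LEU4 (0.55), TRP2 (0.39), LYS1 (0.38), HOM3 (0.38), ARO8 (0.36), HIS7 (0.36), PRO2 (0.35), ILV3 (0.35), LEU1 (0.34), ILV5 (0.33), HOM2 (0.27), HIS1 (0.26), ARO4 (0.26), SER1 (0.23), ARO2 (0.22) and ARO3 (0.19). It lay below for LYS12 (-0.21) and LYS9 (-0.18). The adjusted p ranged from 5.16e-08 to 0.0334.

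With S-metolachlor the change lay above the mean of the others for ARO7 (0.28), ARO3 (0.19), LYS12 (0.15) and LYS9 (0.14). It lay below for THR1 (-1.06), LEU1 (-0.36), BAT1 (-0.26), LEU9 (-0.26), ILV2 (-0.23), ASN2 (-0.22), THR4 (-0.18) and ILV3 (-0.16). The adjusted p ranged from 0.00176 to 0.0408.

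With carbofuran the change lay above the mean of the others for LEU4 (0.46), ILV2 (0.44), LYS1 (0.37), LYS2 (0.31), ARO8 (0.29), LYS9 (0.24), LYS20 (0.23), ASN2 (0.21) and HIS1 (0.16). It lay below for SER2 (-0.65), HIS7 (-0.64), PRO2 (-0.29), SER1 (-0.21) and ARO3 (-0.17). The adjusted p ranged from 4.35e-06 to 0.0444.

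With diuron the change lay below the mean of the others for LYS2 (-0.22), ARO4 (-0.19) and HOM2 (-0.14). The adjusted p ranged from 0.00142 to 0.0348. With MCPA-ME the change lay below the mean of the others for LEU4 (-0.82), LYS1 (-0.74), TRP3 (-0.64), TRP2 (-0.44) and HIS1 (-0.34). The adjusted p ranged from 0.00979 to 0.0391. With alachlor the change lay above the mean of the others for HIS5 (0.24) and ARO3 (0.21). The adjusted p ranged from 0.0111 to 0.0294.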

How the results depend on the processing

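Of 53 named results (47 called changes and 6 changes of GCN4), the call and direction held for 53 with all annotated probe sets, 49 without the dimmest 25% of genes, 48 with median centring or with trend and robust moderation, 46 with quantile normalization or with 16 added in place of the floor, 42 in the weighted fit of all 36 arrays, 26 in that fit without weights, 29 with all 18 controls as 1 group and 34 with the replicate block. GCN4 counts as held where it stayed uncalled. Of 318 fits with 1 array left out, 161 kept the side of the threshold and 157 lost the call, and none turned the direction. The 157 all fell on the 47 called changes. The 161 include every such fit of GCN4, which had no call to lose. With all 18 controls as 1 group, 5 values turned sign: LYS1 (-0.07), LYS2 (-0.11) and ARO1 (-0.07) with carbofuran and HIS7 (-0.04) and LYS1 (-0.13) with pyrimethanil. Unless noted, the causes were not tested.

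Counts of higher genes were as follows. Alachlor gave 4, against 2 in the fit of all 36 arrays without weights, 10 with weights, 12 with 18 controls and 9 with trend and robust moderation. Carbofuran gave 9, against 3 with weights, 5 with quantile normalization, 4 with 16 added, 5 with 18 controls and 15 with trend and robust moderation. Diuron gave 2, against 1 without weights and 1 with 18 controls. MCPA-ME gave 0, against 2 and 2 in the same fits. S-metolachlor gave 8, against 4 without weights and 5 with 16 added. Without weights, the higher share of all genes was 3.52% with alachlor, 8.52% with diuron, 9.97% with MCPA-ME and 10.1% with S-metolachlor. With weights it was 7.47% with alachlor and 13.9% with carbofuran. For the other settings in this paragraph the share of all genes was not counted.

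Counts of lower genes were as follows. Alachlor gave 0, against 1 with weights, with quantile normalization and with 18 controls. Carbofuran gave 2, against 6 in either fit of 36 arrays, 4 with quantile normalization, 1 with centring, with 16 added or without dim genes, 9 with 18 controls and 5 with trend and robust moderation. Diuron gave 7, against 4 without weights, 16 with weights and 17 with trend and robust moderation. MCPA-ME gave 0, against 22 without weights, 10 with weights and 20 with 18 controls. Pyrimethanil gave 3, against 1 with centring and 5 with 18 controls, and S-metolachlor 12, against 7 without weights. Without weights, the lower share of all genes was 23.7% with carbofuran, 5.84% with diuron, 8.61% with MCPA-ME and 14.4% with S-metolachlor. With weights it was 4.75% with alachlor, 20.2% with carbofuran, 12.3% with diuron and 1.27% with MCPA-ME. For the other settings the share of all genes was not counted here either.

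The median change of the 47 genes moved under median centring to 0.17 with carbofuran, 0.21 with pyrimethanil and 0.04 with S-metolachlor, since that setting shifts every gene, and with 18 controls to 0.02, -0.02, 0.04 and 0.04 with carbofuran, diuron, pyrimethanil and S-metolachlor. With 1 array left out the medians ranged from 0.06 to 0.10 with alachlor and carbofuran, -0.07 to -0.04 with diuron, -0.28 to -0.11 with MCPA-ME, 0.13 to 0.19 with pyrimethanil and -0.01 to 0.01 with S-metolachlor. Higher counts then ranged from 1 to 3 with alachlor, 0 to 9 with carbofuran, 1 to 2 with diuron, 1 to 8 with pyrimethanil and 2 to 7 with S-metolachlor. Lower counts ranged from 0 to 7 with carbofuran, 1 to 8 with diuron, 0 to 3 with pyrimethanil and 7 to 10 with S-metolachlor, and were 0 with alachlor and MCPA-ME. For the fits with 1 array left out, the share of all genes was not counted.

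The replicate block gave 0 higher genes with alachlor, 1 higher and 1 lower with carbofuran, 2 and 9 with diuron, 14 and 2 with pyrimethanil, 4 and 10 with S-metolachlor and none with MCPA-ME. In that setting 1.1% of all genes were higher and 0.22% lower with alachlor, and 13% and 11.6% with diuron. The shares were 7.8% and 10.8% with pyrimethanil and 14.8% and 19.5% with S-metolachlor. With carbofuran 10.2% of all genes (557 genes) were higher and 571 genes lower. The 14 higher with pyrimethanil thus lay above the share of all genes, and both carbofuran counts lay below it. For alachlor, carbofuran, MCPA-ME and S-metolachlor the samples share only a number. Every sample correlated best with its own number only with diuron and pyrimethanil.

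For the differences from the other 5 pesticides, the counts above and below with 18 controls as 1 group were 31 and 2 for alachlor, 17 and 14 for S-metolachlor, 12 below for carbofuran, 9 and 9 for diuron, 13 below for MCPA-ME and 6 below for pyrimethanil. Without weights they were 0 above for alachlor, 20 below for MCPA-ME, 10 above for pyrimethanil and 1 below for S-metolachlor, and with quantile normalization 1 above for alachlor and 7 below for diuron. Without array 1 of the carbofuran IC20 group and array 2 of the MCPA-ME IC20 group, a setting chosen after seeing the data, they were 1 above and 9 below for diuron and 13 below for S-metolachlor. Shares of all genes were not counted for these alternative differences. The counts of genes with unequal changes or controls stayed within 1.5 times of 34 and 43 in every setting run. With 3 arrays per group, size alone did not set which calls held: TRP4 with pyrimethanil (0.58) was lost without any single array, while ASN2 with S-metolachlor (-0.24) held in all 6 fits.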

Other observations

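Genes next to these pathways gave values that belong to no branch above. Of 10 genes for the breakdown of the same amino acids, GDH2 was the only one called higher with S-metolachlor and with pyrimethanil, where 3 and 2 were called lower and the list medians were -0.21 and -0.06. Of all genes, 16.7% were higher and 20.6% lower with S-metolachlor, and 7.23% and 8.97% with pyrimethanil. With S-metolachlor the lower genes were GCV2 (-0.57, adjusted p = 0.00392, limma on 6 arrays) and GCV1 (-0.27, adjusted p = 0.00524) of the glycine cleavage system and PUT2 (-0.28, adjusted p = 0.0157) of proline breakdown. With pyrimethanil they were the pyruvate decarboxylase genes PDC5 (-0.51, adjusted p = 0.0148) and PDC6 (-0.48, adjusted p = 0.0293). The PDC5 call was lost without control array 3 or IC20 array 1 or 2, and the PDC6 call without any IC20 array. With replicates of equal number paired, only 1 of the 10 genes was called lower with pyrimethanil, where 10.8% of all genes were. The PUT2 call with S-metolachlor was lost without IC20 array 1 or 3. GDH2, the NAD-dependent glutamate dehydrogenase that breaks down glutamate, rose with 5 pesticides, by 1.29 on the log2 scale with S-metolachlor (adjusted p = 0.000769, limma on 6 arrays), 1.23 with pyrimethanil (adjusted p = 0.0139), 0.67 with carbofuran (adjusted p = 0.0158), 0.58 with alachlor (adjusted p = 0.0399) and 0.56 with diuron (adjusted p = 0.00907), and read 0.01 with MCPA-ME. Its calls with S-metolachlor and diuron held with each array left out, the alachlor call was lost without any single array, the carbofuran call without any control array and the pyrimethanil call without IC20 array 1 or 2. ARO9, the aromatic aminotransferase used mainly in breakdown, rose with carbofuran (1.14, adjusted p = 0.00354), S-metolachlor (0.59, adjusted p = 0.015) and diuron (0.52, adjusted p = 0.00748) and fell with pyrimethanil (-0.55, adjusted p = 0.0376, lost without any single array). The ARO9 call with S-metolachlor was lost without IC20 array 1, and the one with pyrimethanil did not hold with replicates of equal number paired. ODC1, a mitochondrial carrier of 2-oxodicarboxylates such as 2-oxoadipate of the lysine branch, rose with carbofuran (1.26, adjusted p = 0.00189), S-metolachlor (0.69, adjusted p = 0.000486), alachlor (0.41, adjusted p = 0.02) and diuron (0.39, adjusted p = 0.00547). Its alachlor call was lost without any array other than IC20 array 3. PUT1, the proline oxidase, rose with carbofuran (1.34, adjusted p = 0.0321), a call lost without any array other than IC20 array 1.

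GDH3, a glutamate dehydrogenase isozyme that makes glutamate, rose with diuron (1.15, adjusted p = 0.00233), alachlor (0.60, adjusted p = 0.0291) and carbofuran (0.43, adjusted p = 0.0172). Its diuron call held with each array left out. The alachlor call was lost without any array other than IC20 array 3, and the carbofuran call without any control array or IC20 array 3. Of 3 measured markers of the opposite mating type, STE3, a receptor of cells of the opposite mating type with low intensities on every array, was higher with diuron (1.56, adjusted p = 0.00256), S-metolachlor (0.87, adjusted p = 0.0123) and alachlor (0.81, adjusted p = 0.00662). MF(ALPHA)2, a pheromone gene, was lower with pyrimethanil (-0.75, adjusted p = 0.0391) and read -0.63 with S-metolachlor, so these markers did not move one way. The MF(ALPHA)2 call was lost without any array other than control array 2, whereas the STE3 calls held with each array left out. MF(ALPHA)1 passed the test with no pesticide and read between -0.15 and 0.72.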
